A study of Homo sapiens with 2 samples.

Results

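The array carried 838 gene names made of LINC and a number, the symbol given to long intergenic non-coding RNA genes, and 94 of them reached a signal minimum in the parental line HL60 or in the cytarabine-resistant line R-HL60. The minimum lies between the 75th percentiles of the arrays, which were 292 for HL60 and 294 for R-HL60, and a name was taken when any of its probes reached it. Thus the members were chosen by their brightness on the same 2 arrays that are compared here. HL60 cells are promyelocyte-like cells from an acute myeloid leukaemia and were grown here without treatment. R-HL60 was raised from it under continuous cytarabine at rising concentrations, and its label gives cytarabine as the treatment. Cytarabine is a deoxycytidine analogue that blocks DNA synthesis. Both lines were kept in the same serum-supplemented medium, and each was measured on 1 one-colour Agilent array. Line and array therefore cannot be told apart, no difference has a test, and no source used here says whether R-HL60 is a single clone.

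Long non-coding RNAs are transcribed and usually spliced and polyadenylated like messenger RNAs but lack a long open reading frame. Some act on the gene next to them while they are being transcribed, some act elsewhere in the nucleus or bind proteins in the cytoplasm, and many LINC numbers stand for transcripts without a known function. Their expression is often restricted to 1 tissue or lineage, and several are used as markers of blood cell types. A few loci first named LINC were later found to be translated into small proteins and were renamed.

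The signal minimum is a level of brightness and not a detection call, since the files hold no detection flags. It was reached by 11.2% of the LINC names, against 27.7% of all 43317 names. The 94 names were read by 245 probes, of which 123 reached the minimum, and 84 names reached it on both arrays. The names just above were LINC00885 (233 in HL60 and 302 in R-HL60), LINC01578 (302 and 308) and LINC01446 (1.99 and 309). Those just below were LINC01234 (278 and 284), LINC01372 (277 and 264) and LINC00322 (276 and 252). All 7 promyelocytic markers reached the minimum in HL60, among them MPO at 309491 in HL60 and 285746 in R-HL60, and ELANE fell below it in R-HL60 (700 and 153). The lymphoid, erythroid, megakaryocyte, epithelial and fibroblast genes reported here were mostly dim. The exceptions among them that reached the minimum were the T-cell gene CD3D (3923 and 6201), the B-cell gene CD79A (2134 and 2356), KRT8 and KRT18.

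Not every member is a long non-coding RNA gene in the current annotation. In the RefSeq gene table of assembly GRCh38.p14, 66 names are still the symbol in use, 26 are older symbols of 1 gene, and LINC00086 and LINC00087 are each an older symbol of both SMIM10L2A and SMIM10L2B, near-identical genes that these names do not separate. The table lists 82 members as lncRNA, 9 as protein coding and 1, LINC01296, as the transcribed pseudogene DUXAP9. The protein-coding members are LINC00959 (C10orf143), LINC00083 (CLEC20A), LINC00493 (SMIM26), LINC00341 (SYNE3), LINC00176 (C20orf204), LINC00094 (BRD3OS), LINC00998 (SMIM30), LINC00116 (MTLN) and LINC01420 (NBDY).

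Most members had nearly the same signal in both lines. Differences are given as log2 of R-HL60 over HL60 after each array was divided by its 75th percentile. Of the 94 members, 89 lay within 1.5-fold, or 94.7%, against 97.6% of the 11986 names of any kind that met the same signal rule, 2.39% of which were past it in either direction. The median over the members was 0.01, and the quartiles were at -0.09 and 0.17, while over the 11986 names the median was -0.05 and the quartiles were at -0.15 and 0.04. The gap between both medians was between 0.04 and 0.06 under 6 settings that all kept the brightest probe. Setting each array to its median cannot change this gap, and quantile normalization and the authors' table are nearly the same. The narrow range is therefore little evidence that the gap is stable. The sign of a small difference varied with the setting. Of the members 53.2% were above 0 here, 34.0% with each array set to its median and 66.0% with loess by brightness. Over all 11986 names these shares were 35.0%, 17.3% and 50.8%. The 374 lncRNA genes among the 11986 names, members included, had a median of 0.02 and the 9353 protein-coding genes one of -0.06.

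**Figure D1:**
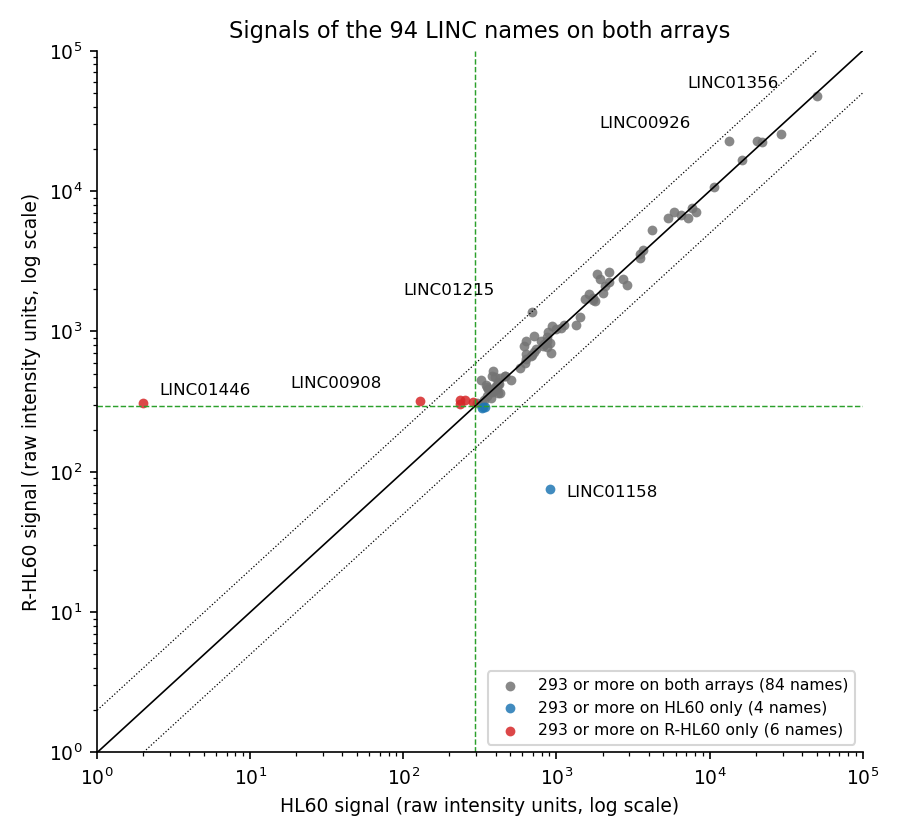
Raw signal of the brightest probe of each LINC name in HL60 (horizontal, log scale) and R-HL60 (vertical, log scale), 1 array per line; the solid line marks equal signals, dotted lines 2-fold, dashed green lines the signal minimum. The 84 names that reached it on both arrays lie along the line, and LINC01446, LINC00908 and LINC01158 lie outside 2-fold.

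At least 2-fold differences were seen for 3 members, beside 0.801% of all names meeting the signal rule, and each of them reached the minimum in only 1 of the lines. LINC01446 and LINC00908 were higher in R-HL60 and LINC01158, now named PANTR1, was lower. The 2 higher names are 2.13% of the members, beside 0.567% of all names meeting the signal rule, and the 1 lower name is 1.06%, beside 0.234%. Because the rule itself used these signals, a name that passes through 1 line is bound to be higher there, and nothing is read from these shares. The 84 members that reached the minimum in both lines ran from -0.44 to 0.98.

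LINC01158 (PANTR1), on chromosome 2, had the largest difference measured in both lines. It is transcribed beside POU3F3, a transcription factor gene of the developing brain. The signal was 910 in HL60 and 75.5 in R-HL60, a log2 difference of -3.60 or 12.1-fold lower. Adding 50 units to every signal, so that dim signals weigh less, gave 7.69-fold. The RNA was thus bright in the parent and dim, though above the array's median of 32.8, in the resistant line. Its other probe lay below the median on both arrays, at 4.45 and 1.58, so the difference rests on 1 probe. POU3F3 itself was below the median on both arrays, at 14.5 and 9.40. Of the 5 protein-coding genes on either side in gene order, 6 were measured on both arrays, and they ran from -0.34 for SLC67A2 to 0.04 for SLC9A4.

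LINC01446, on chromosome 7, went from 1.99 in HL60 to 309 in R-HL60. The parental value was below the array's median of 30.7, used here as the floor under which a signal has no order. Against that floor the name was at least 10.0-fold higher, or at least 4.42-fold with the offset. This too rests on 1 probe, since the other was at 6.68 and 1.79, below the floor on both. The name also sits only just inside the signal rule. The nearest protein-coding genes did not share the difference: POM121L12 was at -0.26, VSTM2A was below the floor on both arrays, and the 5 flanking genes measured on both ran from -0.26 to -0.05.

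LINC00908, on chromosome 18, was read by 7 probes, more than either of the names above. Its brightest probe went from 128 to 319, a log2 difference of 1.31 or 2.47-fold higher, and 2.06-fold with the offset. The other 5 measured probes gave 0.85, 0.58, 0.34, 0.28 and -0.03. Thus 5 of 6 measured probes were above 0, only the brightest passed 2-fold, and their mean was 0.56 with an SD of 0.47 (n = 6 probes of 1 array pair, which are not replicates of the lines). In gene order it lies between ZNF516, a zinc-finger gene at 0.65 (1441 to 2280), and ZNF236, at 255 in HL60 and 256 in R-HL60. Of 7 measured flanking genes 6 were above 0, including MBP at 0.27 and TSHZ1 at 0.19, with a median of 0.16. Beside this, 35.0% of all names meeting the signal rule were above 0. That share was 17.3% with each array set to its median and 50.8% with loess. The flanking genes only had to be above the floor, so the sets are not alike and nothing is read from these shares. Another member of the same chromosome, LINC00909 (ZNF407-AS1), had probes at 0.18, 0.04 and -0.60, and LINC01478 had probes at -0.08 and 0.63, so neither shared a direction over its probes.

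**Figure D2:**
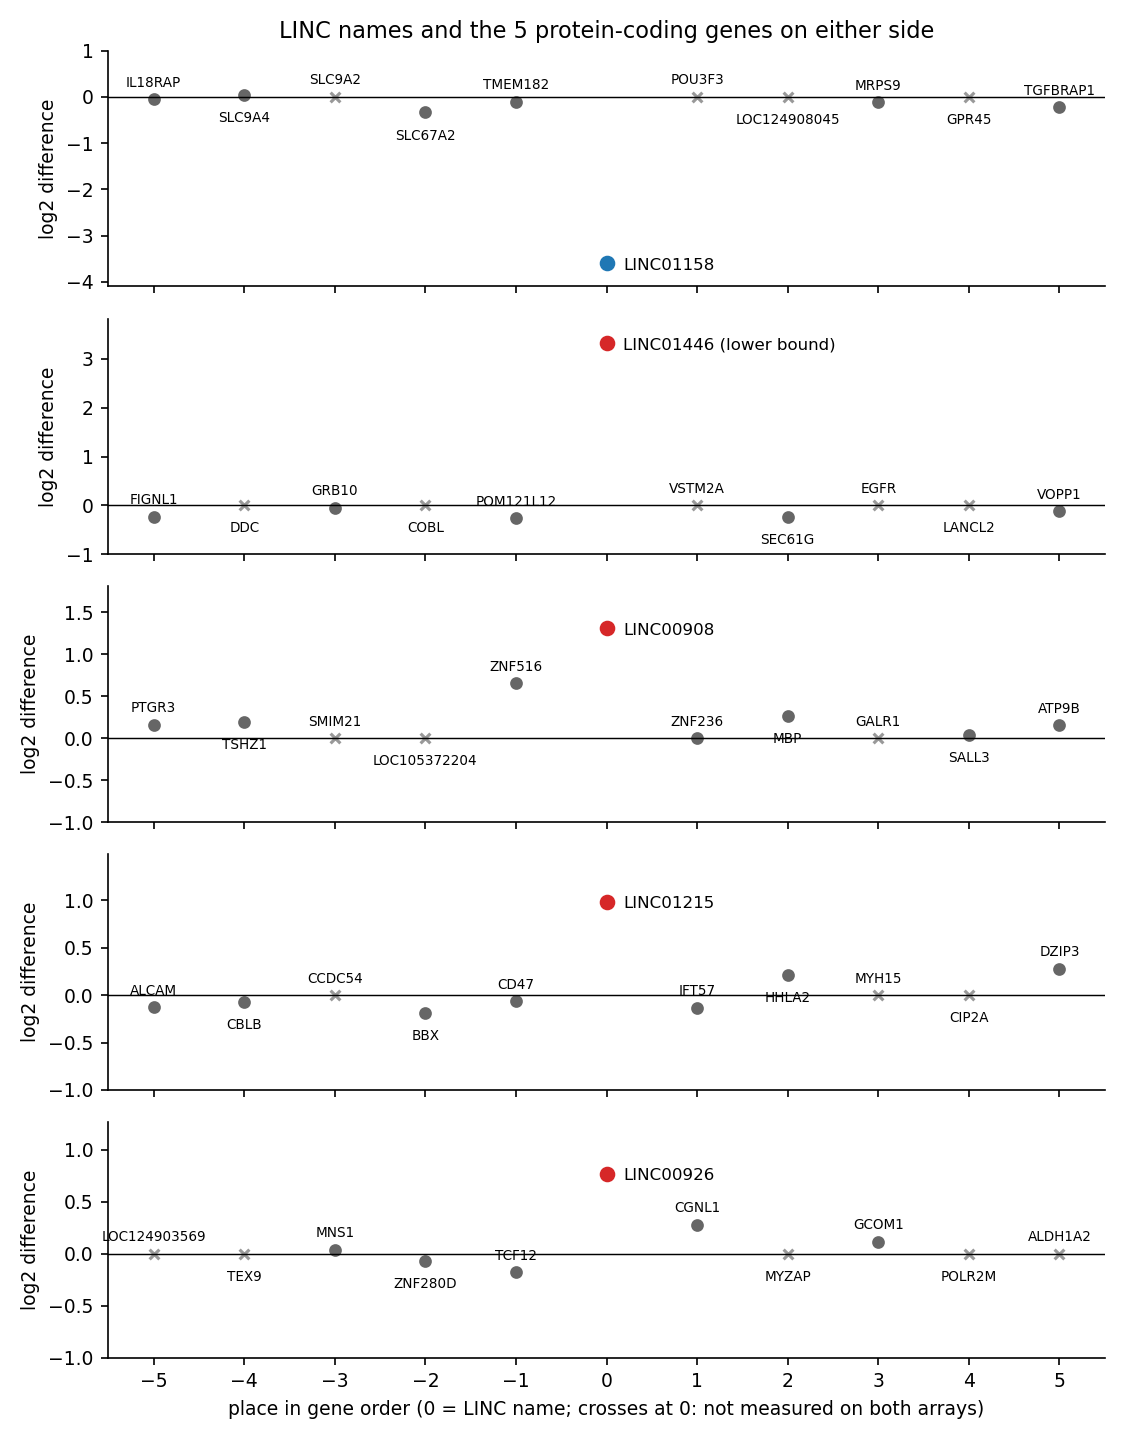
Log2 difference (R-HL60 minus HL60) of 5 LINC names and of the 5 protein-coding genes before and after each in the order of the gene table; grey points are genes above the floor on both arrays, crosses at 0 genes without a measured difference. LINC01158 at -3.60 and LINC01446 at a bound of 3.32 stand apart from their neighbours, while ZNF516 beside LINC00908 was at 0.65.

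The RefSeq promoter table, which gives 250 bases before and 50 after each gene's start on GRCh38.p14, matched 67 members. The promoters of the members past 2-fold that it holds are printed here 5′ to 3′ because they are the regions closest to those differences, with matches to the motifs searched in capitals. PANTR1 is at chr2:104851427-104851726 on the minus strand and LINC00908 at chr18:76528405-76528704 on the plus strand.
PANTR1: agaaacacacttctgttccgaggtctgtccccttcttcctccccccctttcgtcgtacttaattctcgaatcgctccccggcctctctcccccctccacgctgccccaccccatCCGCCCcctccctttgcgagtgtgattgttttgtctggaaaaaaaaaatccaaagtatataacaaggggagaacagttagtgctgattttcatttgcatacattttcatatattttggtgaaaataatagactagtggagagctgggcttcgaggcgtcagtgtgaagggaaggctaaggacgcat
LINC00908: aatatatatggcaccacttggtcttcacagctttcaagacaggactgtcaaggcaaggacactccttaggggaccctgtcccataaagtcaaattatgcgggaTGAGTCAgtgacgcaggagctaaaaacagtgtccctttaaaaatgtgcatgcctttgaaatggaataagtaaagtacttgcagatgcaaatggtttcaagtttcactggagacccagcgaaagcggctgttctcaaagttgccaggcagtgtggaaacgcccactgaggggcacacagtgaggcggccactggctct
The PANTR1 window held 1 GC box (GGGCGG, on the opposite strand) at bases 115 to 120, a motif found in 45.0% of all 35116 promoters. The LINC00908 window held 1 AP-1 motif (TGANTCA) at bases 104 to 110, found in 7.71% of all promoters. Neither window held the NF-kB kB consensus, PU.1 (GAGGAAGT), C/EBP (TTGCNNAA), ISRE, the CCAAT box, the TATA box (TATAAA) or the E-box (CACGTG), each searched on both strands.

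Over the 67 matched members, base composition and CCAAT were close to those of all promoters, while TATAAA and the kB consensus were in a lower share and AP-1 in a higher one. The GC box was in 53.7% against 45.0% of all promoters, CCAAT in 34.3% against 34.6%, and the median GC content was 58.3% against 58.7%. TATAAA was in 3 of 67 (4.48%) against 11.5%, the kB consensus in 4 (5.97%) against 11.3%, and AP-1 in 12 (17.9%) against 7.71%. PU.1 letters were in 4.48% against 2.59%, C/EBP in 11.9% against 10.5%, ISRE in 1.49% against 3.57% and the E-box in 4.48% against 7.26%. The counts of 3, 4 and 12 windows are small, and no share was tested. GC boxes and other motifs can overlap in 1 window, and a match is a description of letters and not a bound site.

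Below 2-fold, the next differences were those of LINC01215 and LINC00926, both higher in R-HL60 and both read by 1 probe. LINC01215, on chromosome 3, went from 693 to 1380 (log2 difference 0.98, 1.98-fold). It passed 2-fold at 2.03-fold in the authors' normalized table and at 2.05-fold with loess. With each array set to its median it was at 1.86-fold, and with the offset at 1.91-fold. Its neighbours CD47, which encodes the surface signal that protects cells from phagocytosis, and IFT57 were at -0.06 and -0.13. LINC00926, a transcript known from B lymphocytes, was bright in both lines and went from 13307 to 22780 (0.77, 1.70-fold). Its neighbours TCF12 and CGNL1 were at -0.18 and 0.28. Of the B-cell markers reported here 2 of 3 were above the floor, and all 3 summed to a signal of 2195 in HL60 and 2419 in R-HL60. CD79A was at 0.13 and MS4A1 at 0.10, while PAX5, which defines the lineage, was below the floor on both arrays. The T-cell list, carried by CD3D, summed to 4183 and 6448. The part of these genes in the LINC00926 difference was not tested, and in bulk RNA a change in the share of cells and a change in RNA per cell cannot be told apart. These complete the 4 members at least 1.5-fold higher, beside 1.58% of all names meeting the signal rule; LINC01158 was the only one of the 94 at least 1.5-fold lower, beside 0.809%.

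The remaining members with the highest differences stayed between 0.35 and 0.47. LINC01089 went from 1838 to 2564 (0.47), and its dimmer probe gave 0.32. LINC00482 was at 0.47 on its brightest probe and -0.15 on the next. LINC01097 was at 0.46, LINC01096 at 0.44, LINC00885 at 0.37 with a further probe at 0.48, and LINC00539 at 0.35. LINC00482, LINC00885 and LINC00539 reached the minimum in R-HL60 only, so their brightest probes were bound to be higher there. The same holds for the further probe of LINC00885. LINC01481, renamed PRANCR after its part in renewal of epidermal progenitors, was at 0.42 (635 to 857). At the other end LINC00342 went from 2878 to 2141 (-0.44) and LINC00959 from 915 to 702 (-0.39). LINC00657, now NORAD, a cytoplasmic RNA that binds Pumilio proteins and is needed for stable chromosomes, went from 1339 to 1110 (-0.28). LINC00083 was at -0.26, LINC01482 at -0.25, LINC01012 at -0.21, and LINC00211 at -0.21. LINC00083 and LINC00211 reached the minimum in HL60 only, so their brightest probes were bound to be lower in R-HL60. With the mean of all probes, those below the floor included, LINC01012 turned to 0.40 and LINC00211 to 0.05. LINC00211 is PIRAT1, an RNA induced by PU.1 in monocytes. A second measured probe of it gave 0.40, so its direction is not settled.

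**Figure D3:**
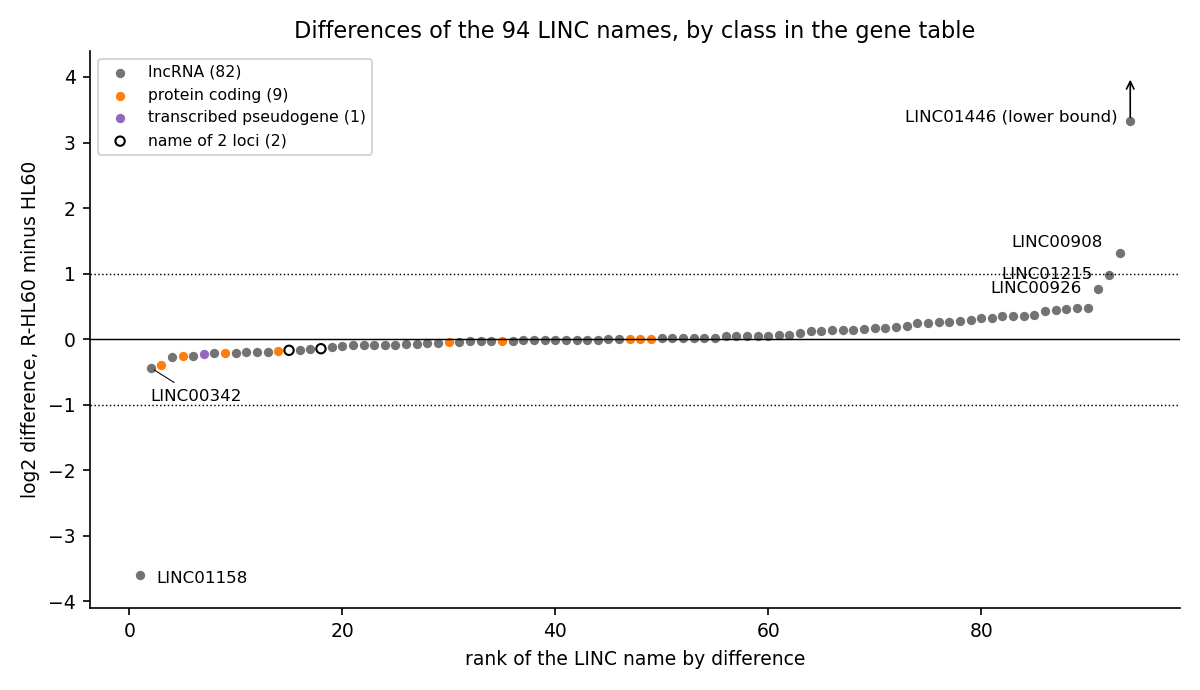
Log2 difference (R-HL60 minus HL60) of the 94 LINC names in rising order, coloured by class in the gene table, with dotted lines at 2-fold. The arrow marks that LINC01446 has only a lower bound, and the 9 protein-coding names lie between -0.39 and 0.01.

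Different probes of a name are the only repeated measurement in these data. Of 45 members with at least 2 probes above the floor on both arrays, 16 had every probe above 0, 8 every probe below 0 and 21 probes on both sides. The pooled probe-to-probe SD was 0.22 for them, beside 0.19 for the 4721 names of any kind with several measured probes, and 0.17 beside 0.11 when only probes that reached the minimum were used. It holds nothing of the variation among cultures or hybridisations. LINC01347 was the most even of the members with 6 measured probes, all above 0 and between 0.17 and 0.40, for a signal of 1629 in HL60 and 1844 in R-HL60 on the brightest. LINC00662 had 5 measured probes, from -0.08 to 0.30; both names were chosen after their values were seen. LINC01296 (DUXAP9) had the widest range after LINC00908: probes of 8171 and 3070 in HL60 gave -0.22 and -0.31, and one of 1273 gave 0.48. DUXAP9 belongs to a family of similar pseudogenes, so its probes may not bind 1 transcript only.

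**Figure D4:**
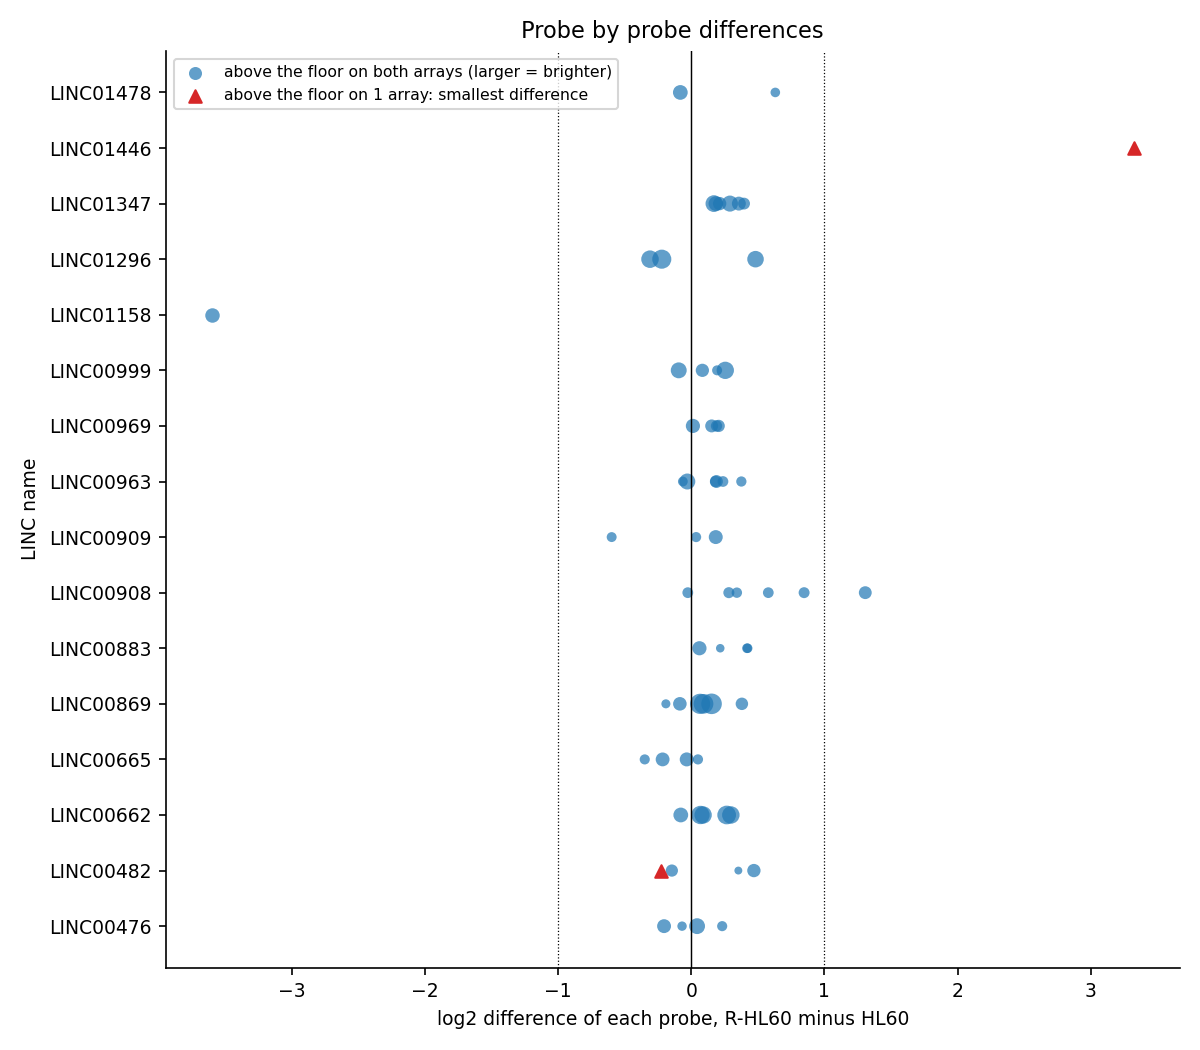
Log2 difference (R-HL60 minus HL60) of each probe for LINC names with 4 or more measured probes, those with the widest ranges, and LINC01158 and LINC01446; larger points are brighter probes, triangles have only a smallest difference, and probes below the floor on both arrays are left out. The LINC01347 probes lie between 0.17 and 0.40, while those of LINC00908 spread from -0.03 to 1.31.

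Apart from LINC00926, the 10 members with the brightest probes lay between -0.22 and 0.15. A probe's brightness also depends on its sequence, so signals of different names are not compared as levels. LINC01356 was at 50197 in HL60 and 47373 in R-HL60 (-0.09). LINC00504 was at 22076 and 22473 (0.02), with a second probe at 18258 and 19560 (0.09). LINC00869 was at 20473 and 22888 (0.15), and its 6 probes ran from -0.19 to 0.38. Of the 25 members above 2000 in at least 1 line, the differences ran from -0.44 to 0.77.

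Loci known to encode small proteins formed a list of 8 LINC names on the array, of which 6 were above the floor, all of them members, and none differed by 2-fold. Among all 23547 names above the floor, 0.786% were at least 2-fold higher, 0.297% lower and 1.08% either. LINC00116, which encodes mitoregulin, a microprotein of the inner mitochondrial membrane, was at 16408 and 16590 (0.01). The mean of all its probes was -0.49, which takes in a second probe at 7.37 and 3.74, below the floor on both arrays. LINC01420, whose product NBDY binds the mRNA decapping complex, was at 10658 and 10777 (0.01), and its second probe gave -0.01. LINC00998 (SMIM30) was at 3505 and 3542 (0.01). LINC00493, which encodes the mitochondrial protein SMIM26, was at 29402 and 25559 (-0.21). LINC00467 was at 0.14 and 0.19 on its probes, and LINC00086 at -0.17 and -0.42. The list median was 0.01, as for all members. LINC00961 and LINC00675 were below the floor on both arrays.

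LINC names described in blood cells or leukaemia were a list of 15 names on the array, of which 13 were above the floor and none differed by 2-fold. Of all names meeting the signal rule 35.0% were above 0. Only 7 names of this list reached the minimum, so the sets are not alike. In this list 7 names were above and 6 below 0, with a median of 0.00. Apart from LINC00926, the members among them were LINC00152 (CYTOR), raised in many tumours, at 0.33 (4213 to 5322), LINC00265 at 0.28 (1927 to 2354), LINC00909 at 0.18, LINC00861 at -0.07 and LINC00657 at -0.28. The dimmer probes of LINC00265 gave -0.16 and 0.10, so its direction is not settled. Names above the floor that did not reach the minimum included LINC00173, known from granulocyte development, at 184 and 181, LINC01268 at 0.47 (118 to 164) and LINC00641 at -0.35 (231 to 183).

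Other well-known long non-coding RNA genes gave a similar picture. Of 45 names on the array 38 were above the floor, none differed by 2-fold, and the median was -0.04. Of the 38 names 13 were above and 25 below 0. All names meeting the signal rule were close to this, with 35.0% above 0 and a median of -0.05. The listed genes only had to be above the floor, and 29 of them reached the minimum, so the sets are not alike. NEAT1, the scaffold of nuclear paraspeckles, had the highest difference at 0.59 (10207 to 15495), followed by LINC-PINT, a p53-induced transcript, at 0.58 (452 to 681). MALAT1, of nuclear speckles, was at -0.14, and HOTAIRM1, a myeloid transcript of the HOXA cluster, was at 0.14 (2630 to 2912). The SNHG genes, which host snoRNAs, ran from -0.34 for SNHG12 to 0.07 for SNHG16, and the snoRNA hosts GAS5 and DANCR were at -0.05 and -0.35. MIR17HG was at -0.46 and the dim imprinted gene H19 at -0.48.

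**Figure D5:**
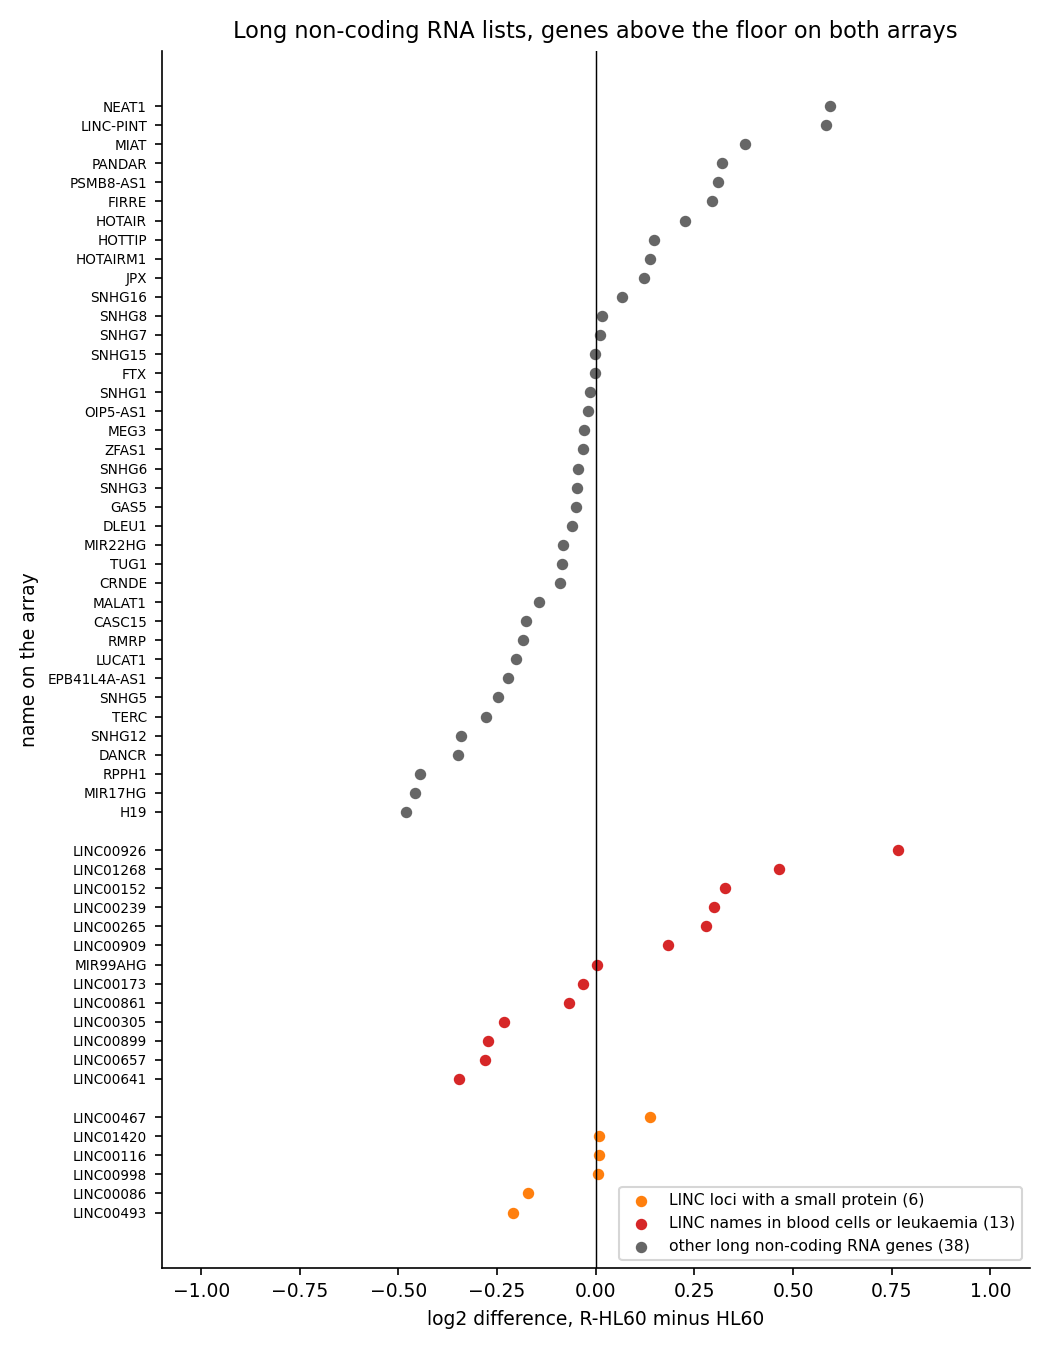
Log2 difference (R-HL60 minus HL60) of each gene above the floor on both arrays in lists of small-protein loci (6 names), blood or leukaemia LINC names (13) and other long non-coding RNA genes (38). All points lie within 2-fold, from H19 at -0.48 to LINC00926 at 0.77.

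Differences of members and of their neighbouring genes were hardly correlated across the 118 pairs in which both were measured. For 92 members the next protein-coding gene on either side was taken from the order of the gene table. Pearson's r between both differences was 0.08 and Spearman's rho 0.02 over these pairs, which share arrays and in part members and neighbours, and r was 0.01 over the 115 pairs without the members past 2-fold. The quartiles of the member differences, -0.09 and 0.17, lay within the probe-to-probe SD of 0.22. A low r can therefore not show whether members and neighbours vary together. The signs were equal in 50 pairs (42.4%), and the sign of a small difference varied with the setting. Of the 114 neighbours above the floor on both arrays 1 was past 2-fold. Neighbours with only a bound are not in this count. The 1.08% of all names above the floor on 1 or both arrays does include bounds, so these shares are not alike. The 1 neighbour was ZC3H12A, which encodes an RNase that degrades inflammatory mRNAs. It went from 702 to 2194 (1.64, 3.11-fold higher) while LINC01137, now LITATS1, beside it went from 425 to 466 (0.12), with a second probe at 0.46. Among neighbours above the floor in R-HL60 only, SOX9 beside LINC00673 had a bound of 1.37 and ZDHHC19 beside LINC00885 one of 1.05, with the members at 0.12 and 0.37. At LINC00523, singled out after its values were seen, the neighbour DLK1 was at -0.94 (232 to 122) and the member at -0.02.

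On their brightest probes, members now named after a partner gene were close to equal in both lines, as were those partners. They were chosen after their values were seen. Some dimmer probes spread further: from -0.20 to 0.23 for LINC00476, down to -0.43 for LINC00271 and down to -0.60 for LINC00909. LINC00271 (AHI1-DT) was at -0.12 and AHI1 at -0.18. LINC01534 (ZNF567-DT) was at -0.09 and ZNF567 at -0.24. LINC01006 (RNF32-DT) was at -0.07 and RNF32 at 0.01, LINC00577 (LIN28B-AS1) at -0.03 and LIN28B at 0.16, and LINC00476 (ERCC6L2-AS1) at 0.04 and ERCC6L2 at -0.10. LINC00909 (ZNF407-AS1) was at 0.18 and ZNF407 at 0.06. LINC00094 (BRD3OS) was at -0.03 and BRD3 at 0.05. LINC01578 is CHASERR, which lies beside the chromatin remodeller gene CHD2 and restrains its expression; it was at 302 and 308 (0.02), and CHD2 at 2129 and 2350 (0.13).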

How the data were processed

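Total RNA of 1 HL60 and 1 R-HL60 sample was labelled with Cy3 and read on 1-colour arrays with Agilent Feature Extraction 10.7.3.1, per the submitters' processing notes. The deposited files hold 1 linear intensity per probe for 58201 probes and a gene name, without probe identifiers or flags. No source used here gives their background treatment. A second deposited table holds the authors' normalized intensity values, which served as an alternative; rank by rank they differed by at most 1.06% from the average of the 2 raw arrays.

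Signals were taken to log2 and each array's 75th percentile was subtracted; quantile normalization, the array median, loess by brightness (span 0.3), an offset of 50 and the mean of all probes were alternatives. The floor was the array's median. The probe with the highest mean log2 signal stood for a name; members were named by the LINC symbols of the files. Names were updated through the RefSeq table of GRCh38.p14, used for names, classes and gene order. With 1 array per line no test was made, and array number limits precision. Members, lists and the rule for named genes (2-fold differences, the 10 highest and 10 lowest, the 10 brightest, those nearest to the signal minimum, list members, the 5 with the most discordant probes, and those beside a gene past 2-fold) were chosen with earlier results of these data known. Of the cell type markers, 2 are not reported here. The steps were tested on simulated data. Python 3.11.15, numpy 2.4.6, pandas 2.3.3 and statsmodels 0.14.6 were used.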

Additional observations from a re-analysis of the deposited data

How the results depend on the processing

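The median over the members ran from -0.08 with each array set to its median to 0.06 with the mean of all probes, so its sign is not settled. Of 2 names at least 2-fold higher, 1 stayed past 2-fold with the mean of all probes, where LINC00908 was at 0.63. The mean of the probes above the floor on both arrays, a setting chosen after seeing the data, also left 1. LINC00908 was then at 0.56. The 1 left was LINC01446, which has 0 probes above the floor on both arrays, so this setting holds no measured value for it. The count was 1 at 3-fold, 4 at 1.5-fold, 0 with a signal minimum of 600 and 0 when the usual minimum had to be reached on both arrays, where the count of lower names was also 0. A minimum of 600 left 57 members. Quantile normalization, loess and the authors' table each gave 3 higher names and 1 lower. With the mean of all probes, which takes in probes below the floor, 13 of the 39 named members moved by over 0.19, the SD among probes of 1 name. LINC01158 was then at -2.55 and LINC01446 at 2.68, and LINC01012 (0.40), LINC00211 (0.05), LINC01478 (0.42), LINC00116 (-0.49) and LINC00909 (-0.13) were among them with the opposite sign. No paired analysis was possible because each line has 1 array. Dim signals and the lack of flags limit what can be said of names below the floor.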

Other observations

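Of the 744 LINC names below the signal minimum, 301 were above the floor on at least 1 array, and 4 of these were at least 2-fold higher and 1 lower in R-HL60 (1.66% of the 301, beside 1.08% of all names above the floor). LINC00599, the symbol in the files for MIR124-1HG, the host gene of a brain microRNA, was above the floor in R-HL60 only, at 27.8 in HL60 and 206 in R-HL60, or at least 6.67-fold higher. LINC01559, on chromosome 12, went from 35.5 to 110 (3.08-fold) on its single probe. LINC01091, on chromosome 4, went from 32.1 to 86.8 (2.68-fold), and LINC01183, now CCDC192, from 34.3 to 71.9 (2.08-fold). Their HL60 signals lay just above the floor of 30.7. Each value is that of the brightest probe. LINC01091 had 4 probes, 3 of them above the floor on both arrays. LINC01183 had 2 probes, 1 of them above it on both, and LINC00599 had 2, with 0 above it on both. LINC01422, on chromosome 22, went from 77.0 to 38.3 (2.02-fold lower). With an offset of 50 units only LINC00599 stayed past 2-fold, at least 3.16-fold higher, and the other 4 were between 1.44-fold and 1.86-fold. These names were chosen after their values were seen.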
